A study of Orbilia oligospora with 9 samples.

Results

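The ribosome biogenesis genes described here are the 83 protein-coding genes of Orbilia oligospora that the deposited annotation places on the KEGG map of ribosome biogenesis in eukaryotes (ko03008). Genes that are also on the maps of the ribosome, the spliceosome or yeast MAPK signalling were left out, which removed 1 gene, the snoRNP protein SNU13. The 83 genes are part of a table of 12901 loci, of which 11144 carry a locus tag. Of the 83, 81 reached FPKM 1 or more in at least 3 libraries and were tested among 10318 such loci. FPKM is a fragment count divided by gene length and by library size. The remaining 2 encode ribonuclease III-like proteins (AOL_s00043g808 and AOL_s00188g285) and were at 0 in most libraries, with no value above 0.1.

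Orbilia (Arthrobotrys) oligospora is a nematode-trapping fungus, and the strain was ATCC 24927. Total RNA came from hyphae after 5 days at 28 °C on tryptone, yeast extract and glucose agar, with 3 libraries for each of WT, the Aomdv1 mutant and the Aovps1 mutant, the mutants as labelled. Mdv1 is an adaptor of mitochondrial division and Vps1 a dynamin-like GTPase of vacuolar and peroxisomal traffic in yeast. The sample labels speak of a knockdown and the study design of deletion strains, and all 9 libraries carry the same treatment tag, for differentiation of aerial hyphae. The labels do not say whether the 3 libraries of a group came from separate plates, so p-values reflect only how these libraries differ among themselves.

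Ribosome biogenesis begins in the nucleolus, where RNA polymerase I transcribes a long precursor rRNA. In yeast, the UTP-A, UTP-B and UTP-C complexes, the MPP10 complex and the U3 snoRNP assemble on its first part into the 90S particle, while box C/D and box H/ACA snoRNPs guide methylation and pseudouridylation. The 40S and 60S precursors then separate, AAA ATPases and GTPases remodel them, and export factors carry them through the nuclear pore. In the cytoplasm, the last placeholder proteins are released before the subunits can translate.

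The libraries held an estimated 15850000 to 19400000 fragments. Log2 values correlated at 0.896 to 0.981 among the WT libraries, at 0.863 to 0.961 among those labelled Aomdv1 and at 0.980 to 0.991 among those labelled Aovps1. WT library 3 and library 3 labelled Aomdv1 stood apart from their partners, and in both the level was lower the longer the gene. From the shortest to the longest of 5 equal classes of loci, the median deviation went from 0.18 to -0.30 (log2) in WT library 3 and from 0.30 to -0.56 in library 3 labelled Aomdv1. The targeted gene MDV1 (AOL_s00097g206) had FPKM 121 ± 10.5 in WT and 109 ± 23.5 in the Aomdv1-labelled libraries (SD, n = 3; adjusted p = 0.768, limma with Benjamini-Hochberg adjustment), so its transcript did not mark the labelled group. VPS1 (AOL_s00007g394) had FPKM 87.1 ± 16.7 in WT, 44.0 ± 9.95 in the Aomdv1-labelled libraries (adjusted p = 0.117, limma) and 37.9 ± 13.4 in those labelled Aovps1 (adjusted p = 0.0421, limma). That VPS1 call was lost without WT library 1 or 2 or any library labelled Aovps1, with adjusted p-values of 0.0786 to 0.16, the highest without library 2 labelled Aovps1. The groups are therefore called by their labels throughout. Summed FPKM of 15 hyphal marker genes, hydrophobins and chitin synthases, was 2051 to 2777 in WT, 364 to 959 in the Aomdv1-labelled libraries and 754 to 821 in those labelled Aovps1. A list of 57 genes was drawn as trap markers by the annotation words lectin, CFEM, GLEYA and cuticle-degrading protease, and 43 were tested. Its sums were 29600 to 45710, 14690 to 28060 and 16730 to 18960 in the same order of groups. Such words do not show that traps were present. Sums of 9 genes drawn by words for conidia were 97.4 to 122, 77.4 to 147 and 130 to 146. No marker was at 0 in all libraries, and the part of cell makeup in the results below was not tested. In bulk RNA, fewer cells of a type and less RNA per cell cannot be told apart.

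Few of the genes changed past the threshold. Against WT, 4 of the 81 rose and 1 fell in the Aomdv1-labelled libraries (limma, Benjamini-Hochberg adjusted p below 0.05 over all 10318 loci), where 5.62% of all loci rose and 4.22% fell. In the libraries labelled Aovps1 also 4 rose and 1 fell, beside 8.61% and 5.21% of all loci. Both shares of members called are near or below those of the whole table. The risers shared by both comparisons were a RIX7-type ATPase and nuclear transport factor NTF2, and both comparisons use the same WT libraries. The single fallers were a REXO3-like exonuclease in the Aomdv1-labelled libraries and SDO1, which matures the 60S subunit, in those labelled Aovps1. At an unadjusted p below 0.05 there were 11 members in the first comparison (22.8% of all loci) and 14 in the second (30.5%).

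Relative to the whole table, the members leaned down in the libraries labelled Aovps1. Their median log2 fold change there was -0.03 while that of all loci was 0.30. In the libraries labelled Aomdv1 the medians were 0.13 and 0.08. Taken as the median deviation from each gene's mean, less that of all loci, the members stood at 0.41, 0.35 and -0.32 in WT (log2). They stood at -0.39, 0.13 and -0.30 in the libraries labelled Aovps1, so the 2 groups overlapped. The pooled SD of this value over libraries was 0.328, near the size of the lean. Scaling the libraries by median ratios or by quantiles moved the median of all loci from 0.30 to 0.00 and 0.08 for Aovps1 and left the members 0.37 and 0.41 below it, against 0.34 below with FPKM as deposited. Under either scaling the calls for Aovps1 became 2 rises (RIX7-like a and NTF2) and 3 falls (SDO1, REXO3-like b and the kinase HRR25), beside 5.35% and 7.22% of all loci with median ratios and 6.43% and 6.82% with quantiles. For Aomdv1 they became 2 rises (RIX7-like a and NTF2) and 1 fall, beside 4.91% and 5.19%, and 5.37% and 4.76%. A correction for gene span gave the same counts as the scalings, beside 5.34% and 5.47% of all loci for Aomdv1 and 5.65% and 8.01% for Aovps1. In a fit of only the Aomdv1-labelled and WT libraries, RIX7-like a alone passed, beside 2.8% of all loci that rose and 2.12% that fell. In that of only the libraries labelled Aovps1 and WT, 7 members rose and 2 fell, beside 16.7% and 7.36%.

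Leaving out WT library 3 and library 3 labelled Aomdv1, an alternative chosen after seeing the data, raised the counts for members and for all loci. For Aomdv1, 10 members then rose and 1 fell (19.0% and 7.84% of all loci). The members' median turned from 0.05 above that of all loci to 0.42 below it. For Aovps1, 14 members rose and 8 fell (32.3% and 11.6%), and the 8 were UTP5, UTP6, UTP15, UTP21, CBF5, HRR25, REXO3-like b and SDO1. Of those 8, 4 belong to the UTP-A and UTP-B complexes and CBF5 is the pseudouridine synthase of box H/ACA snoRNPs.

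**Figure D1:**
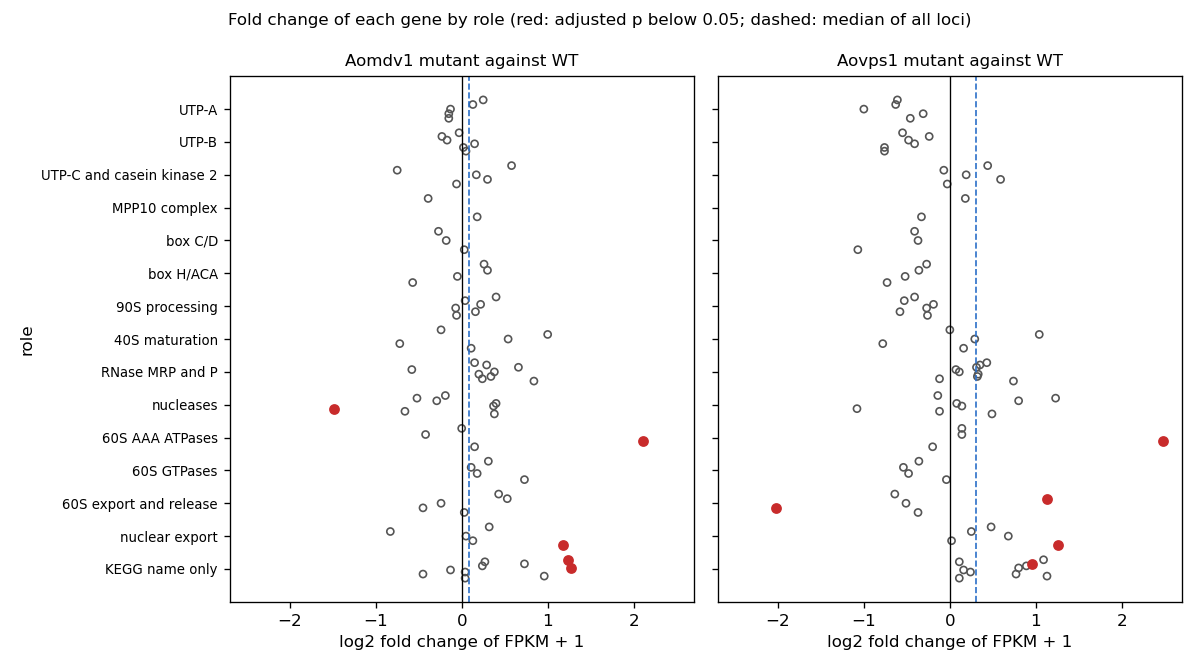
Log2 fold change of FPKM + 1 for each of the 81 tested genes (1 circle each) by role, for the libraries labelled Aomdv1 (left) and Aovps1 (right) against WT. Filled red circles passed an adjusted p below 0.05 (limma) and the dashed line is the median of all loci (0.08 and 0.30); on the right, the UTP-A, UTP-B, snoRNP and 90S processing genes lie left of that line.

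The deepest fall was that of SDO1 (AOL_s00097g296, scaffold NW_011645654.1, bases 1019452 to 1020333, plus strand, RefSeq assembly of this strain). SDO1, known in human cells as SBDS, works with the GTPase EFL1, called RIA1 here, to evict TIF6 from the 60S subunit in the cytoplasm, and TIF6 keeps the subunit from joining the 40S until then. FPKM of SDO1 was 116, 147 and 252 in WT, 85.5, 141 and 139 in the Aomdv1-labelled libraries, and 38.1, 42.5 and 37.8 in those labelled Aovps1. All 3 libraries labelled Aovps1 lay below the other 6, and the other 2 groups overlapped. The fall for Aovps1 was -2.02 ± 0.342 (log2, SE, n = 3 per group; 95% interval -2.78 to -1.26; limma adjusted p = 0.00391), and it passed under all 15 alternatives, with adjusted p-values of 0.000977 to 0.0243. For Aomdv1 the log2 fold change of SDO1 was -0.45 (95% interval -1.21 to 0.31; limma adjusted p = 0.497). The direct contrast of the libraries labelled Aovps1 with those labelled Aomdv1 gave -1.57 (95% interval -2.33 to -0.81; unadjusted p = 0.000954, limma adjusted p = 0.398).

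RIA1 (AOL_s00054g406, scaffold NW_011645611.1, bases 1311866 to 1315099, minus strand), the partner GTPase, went the other way. Its FPKM was 18.6, 13.5 and 15.6 in WT, 21.9, 26.0 and 21.9 in the Aomdv1-labelled libraries, and 33.7, 45.4 and 29.7 in those labelled Aovps1. The 3 groups did not overlap, with WT lowest and Aovps1 highest. The rise for Aovps1 was 1.13 ± 0.291 (log2, SE; limma adjusted p = 0.0293), while for Aomdv1 the value was 0.53 (limma adjusted p = 0.326). The call for Aovps1 was lost under median-ratio and quantile scaling (adjusted p = 0.092 and 0.0788) and without WT library 2 or any 1 of the libraries labelled Aovps1 (0.0785 to 0.136), and also under the span correction (0.153). Over the 15 alternatives the fold stayed between 0.66 and 1.26.

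TIF6 (AOL_s00079g326), the protein that this pair releases, did not pass. Its FPKM was 206, 195 and 239.9 in WT, 165, 145 and 243 in the Aomdv1-labelled libraries, and 124, 209 and 127 in those labelled Aovps1. The groups overlapped, and the log2 fold change for Aovps1 was -0.51 (95% interval -1.20 to 0.17). The other 2 genes placed in the same role class, 60S export and release, were NMD3 and NOP4. NMD3 is the adaptor that brings the 60S subunit to the exportin, while NOP4 is a nucleolar RNA-binding protein of 60S assembly. NMD3 had FPKM 68.1, 71.1 and 87.0 in WT, 97.2, 54.9 and 193 in the Aomdv1-labelled libraries, and 37.8, 72.5 and 39.5 in those labelled Aovps1, with overlapping groups. NOP4 had 12.4 to 19.9, 12.6 to 20.3 and 8.67 to 19.5, and neither passed.

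**Figure D2:**
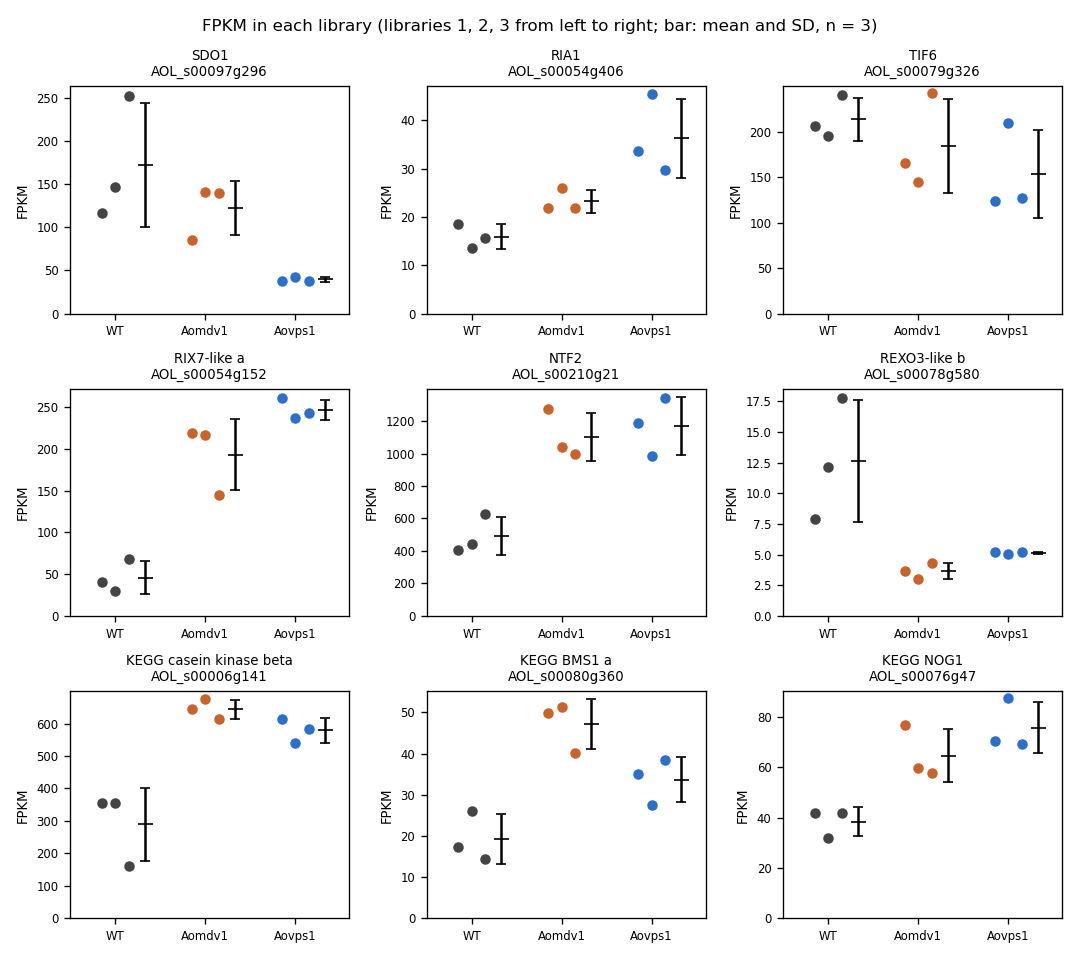
FPKM in each library for the 8 genes called in any comparison and for TIF6 (dots, libraries 1 to 3 from left to right; the bar gives the mean and SD of 3 libraries; every axis starts at 0). The 3 libraries labelled Aovps1 sit at 37.8 to 42.5 for SDO1, below the other 6, and for RIX7-like a both mutant labels sit at 144 to 260, above the 3 WT libraries.

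The largest rise in both comparisons was in RIX7-like a (AOL_s00054g152, scaffold NW_011645611.1, bases 424116 to 426042, minus strand), an AAA ATPase whose best Swiss-Prot hit is yeast RIX7, which extracts NSA1 from precursor 60S particles. FPKM was 40.3, 29.6 and 67.6 in WT, 219, 216 and 144 in the Aomdv1-labelled libraries, and 260.2, 237 and 243 in those labelled Aovps1. All 6 mutant libraries lay above all 3 of WT. The log2 fold change was 2.11 ± 0.332 for Aomdv1 (SE; limma adjusted p = 0.00267) and 2.48 ± 0.332 for Aovps1 (limma adjusted p = 0.00101). Both passed under all 15 alternatives, with adjusted p-values up to 0.0216 and 0.00826. A second gene that KEGG also names RIX7, RIX7-like b (AOL_s00188g54), spans 2791 bp against 1927 bp and did not follow, at FPKM 17.4 to 21.2 in WT, 18.8 to 24.4 in the Aomdv1-labelled libraries and 12.1 to 25.4 in those labelled Aovps1. Its best Swiss-Prot hit is an uncharacterised AAA protein of fission yeast.

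The other 60S AAA ATPases are AFG2, known as Drg1, which strips the first factors from exported 60S particles in yeast, and MDN1 (Rea1), a giant ATPase that removes assembly factors in the nucleus. AFG2 was at FPKM 6.02 to 6.78, 5.47 to 7.52 and 5.84 to 9.6 in WT, Aomdv1 and Aovps1. MDN1, the longest of the genes at 15255 bp, was at 0.92 to 6.87, 2.15 to 2.94 and 2.64 to 7.29. In both genes the 3 groups overlapped.

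The 4 GTPases of the 60S pathway, NOG1 and NOG2 of nuclear precursors, NUG1, and LSG1, which recycles NMD3 in the cytoplasm, were lower for Aovps1 relative to all loci. Their median was -0.42 with 0 of 4 above 0, while all loci had 0.30. It was -0.23 without library 1 or library 3 labelled Aovps1, -0.24 without WT library 1 and -0.80 without library 2 labelled Aovps1, and 1 of 4 was above 0 without WT library 2 or library 3 labelled Aovps1. For Aomdv1 their median was 0.25, with 0 of 4 below 0, and this direction did not hold under every alternative, since 1 of 4 was below 0 with median ratios and 2 of 4 with quantiles or without WT library 3 or library 3 labelled Aomdv1. 0 of the 4 passed in either comparison (limma; 1 and 0 at an unadjusted p below 0.05). NOG1 (AOL_s00076g264), the most abundant of them in WT, had FPKM 86.2, 62.1 and 30.4 in WT, 57.3, 39.7 and 91.4 in the Aomdv1-labelled libraries, and 24.95, 79.8 and 25.9 in those labelled Aovps1. In each group 1 library stood apart from the other 2, and the groups overlapped. LSG1 (AOL_s00079g274) had FPKM 23.8, 31.7 and 24.6 in WT, 42.2, 38.0 and 55.0 in the Aomdv1-labelled libraries, and 24.5, 31.5 and 21.8 in those labelled Aovps1. The libraries labelled Aomdv1 lay above the other 6, with a log2 fold change of 0.73 (95% interval 0.08 to 1.38; limma adjusted p = 0.166).

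The early genes leaned down for Aovps1. They are the 26 genes of UTP-A, UTP-B, the MPP10 complex, the box C/D and H/ACA core proteins and 90S processing, a union formed after their values were seen and so given without a test. UTP-C, which also joins the 90S particle, was left out of it, and the counts with UTP-C are given beside those without. For Aovps1, 25 of the 26 had a log2 fold change below 0 against WT, where 3546 of all 10318 loci did. The median of the 26 was -0.44 while all loci had 0.30. The 26 moved together from library to library, as given below, so they are not 26 separate observations. With the 5 UTP-C genes, 27 of 31 were below 0, with a median of -0.41. 0 of the 26 passed (limma), and 1 had an unadjusted p below 0.05. The count below 0 was 26 of 26 under both scalings and 22 to 26 when 1 library was left out, with medians of -0.84, without library 2 labelled Aovps1, to -0.24, without library 1 of that label. For Aomdv1, 13 were above and 13 below 0, with a median of -0.01, and no direction held over the alternatives. Under the scalings 18 and 19 of 26 were below 0. With 1 library left out the median ran from -0.25, without WT library 3, to 0.26, without library 2 labelled Aomdv1, and 20 of 26 were above 0 without WT library 1. Without WT library 3 and library 3 labelled Aomdv1, 24 of 26 were below 0 for Aomdv1, with a median of -0.49, and 26 of 26 for Aovps1, with -0.75.

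UTP-A is the complex that first binds the transcribed spacer of the precursor, and its most abundant member in WT was UTP5 (AOL_s00081g347). UTP5 had FPKM 77.2, 81.2 and 27.02 in WT, 44.7, 32.5 and 89.0 in the Aomdv1-labelled libraries, and 18.6, 51.9 and 20.7 in those labelled Aovps1. The groups overlapped through WT library 3 and library 2 labelled Aovps1, and the log2 fold change for Aovps1 was -1.0 (95% interval -2.24 to 0.24). All 5 UTP-A genes had values below 0 there, from -1.0 to -0.31.

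UTP-B, a scaffold that contacts the U3 snoRNA, was led in WT by UTP6 (AOL_s00083g461). UTP6 had FPKM 42.5, 35.5 and 20.8 in WT, 34.9, 16.6 and 59.99 in the Aomdv1-labelled libraries, and 14.4, 25.4 and 16.4 in those labelled Aovps1. Again WT library 3 and library 2 labelled Aovps1 were the values that met. The 6 UTP-B genes ran from -0.76 to -0.24 for Aovps1 and from -0.23 to 0.15 for Aomdv1. IMP3 (AOL_s00083g296) of the MPP10 complex, which holds the U3 duplex with the precursor, had FPKM 64.7, 50.4 and 53.4 in WT, 83.6, 35.2 and 86.3 in the Aomdv1-labelled libraries, and 38.9, 60.6 and 36.8 in those labelled Aovps1, with overlap. Its partner IMP4 had a log2 fold change of 0.18 for Aovps1, the only one of the 26 above 0.

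Among the snoRNP proteins, NOP1 (AOL_s00097g410), the box C/D methyltransferase known as fibrillarin, had FPKM 361, 317 and 211 in WT, 298, 248 and 225 in the Aomdv1-labelled libraries, and 173, 340.2 and 188 in those labelled Aovps1. The groups overlapped, with library 2 labelled Aovps1 near the top of WT and the other 2 of that label below WT. NOP58 (AOL_s00109g190), a box C/D core protein, had FPKM 122, 125 and 181 in WT, 127, 89.7 and 258 in the Aomdv1-labelled libraries, and 49.2, 111 and 53.2 in those labelled Aovps1. The libraries labelled Aovps1 lay below WT, with a log2 fold change of -1.07 (95% interval -2.05 to -0.09; limma adjusted p = 0.132). NOP10 (AOL_s00054g254), the smallest box H/ACA protein, had FPKM 509.97, 385 and 283 in WT, 473, 274 and 740.3 in the Aomdv1-labelled libraries, and 259, 505 and 241 in those labelled Aovps1. Within each label the libraries differed more than the group means did. The 4 box H/ACA genes ran from -0.73 to -0.27 for Aovps1 and the 3 box C/D genes from -1.07 to -0.37.

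The 90S processing genes include the nuclease UTP24, the rRNA acetyltransferase NAT10 (KRE33 in yeast), the helicase activator UTP14, the GTPase BMS1 and its partner RCL1, and the rRNA methyltransferase EMG1. EMG1 (AOL_s00110g158) was the most abundant in WT, at FPKM 65.2, 76.9 and 68.3, and had 69.7, 63.4 and 66.8 in the Aomdv1-labelled libraries, and 49.6, 58.2 and 67.0 in those labelled Aovps1. Its values overlapped between the groups and spanned only 49.6 to 76.9 over all 9 libraries. All 6 had negative log2 fold changes for Aovps1, from -0.58 to -0.19, and 0 passed.

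UTP-C contains the subunits of casein kinase 2, a kinase with many substrates outside the nucleolus. CKA (AOL_s00078g141), the catalytic subunit, had FPKM 103, 70.8 and 63.3 in WT, 113, 84.8 and 69.3 in the Aomdv1-labelled libraries, and 82.7, 94.7 and 87.7 in those labelled Aovps1, with overlap. The regulatory subunit CKB-1 had 33.2 to 44.2 in WT, 31.4 to 65.8 in the Aomdv1-labelled libraries, and 55.8 to 64.7 in those labelled Aovps1, where it lay above WT (log2 fold change 0.59; limma adjusted p = 0.25). Over the 5 UTP-C genes the medians were 0.17 for Aomdv1 and 0.19 for Aovps1. For Aovps1, CKA, CKB-1 and CKB-2, the other regulatory subunit, were above 0, at 0.19, 0.59 and 0.44, and UTP22 and RRP7 below it, at -0.07 and -0.03.

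**Figure D3:**
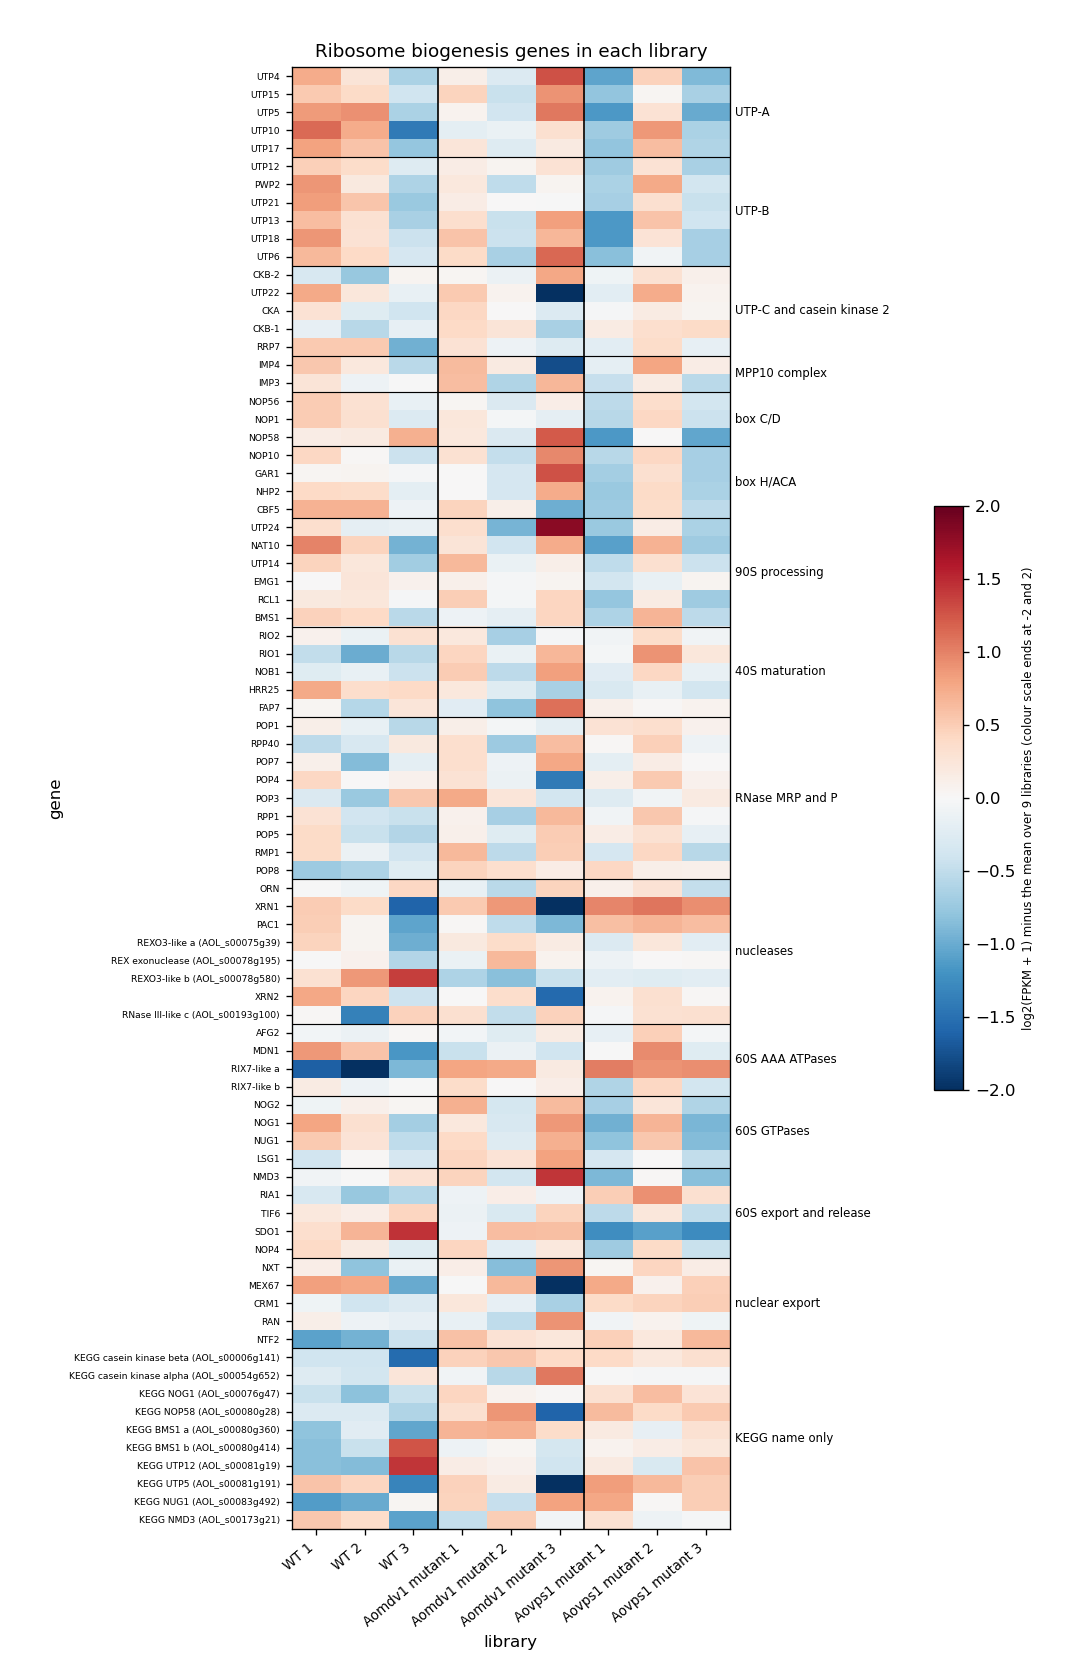
Log2(FPKM + 1) of each of the 81 tested genes minus its mean over the 9 libraries, with genes in rows by role and libraries in columns (red above the mean, blue below, colour ends at -2 and 2). In the UTP-A, UTP-B, snoRNP and 90S processing rows, WT library 3, library 2 labelled Aomdv1 and libraries 1 and 3 labelled Aovps1 are mostly blue. WT libraries 1 and 2, libraries 1 and 3 labelled Aomdv1 and library 2 labelled Aovps1 are mostly red there.

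The members moved together from library to library within a group. Library 2 labelled Aovps1 was the highest of its 3 in 60 of the 81 genes, where 40.4% of all loci had their highest value in it. Among the 26 early genes it was the highest in 25, EMG1 being the exception, and among the 71 genes counted as backed by a protein hit in 59. The ratio of library 2 to the mean of the other 2 had a median of 1.43 over the members, 1.99 over the early genes and 2.56 over UTP-A, and 1.01 over all loci. The largest ratios were 3.2 for NAT10, at FPKM 9.14, 33.9 and 12.1, 3.14 for NOG1, and 3.12 for UTP10, the largest UTP-A protein, at 8.17, 26.3 and 8.72. Over all loci, library 2 correlated at 0.980 to 0.983 with its partners and these at 0.991 with each other, and it was the lowest of its group in 36.7% of loci. VPS1 itself was lowest in it, at FPKM 22.6 against 44.3 and 46.9, and the part of VPS1 level in the pattern was not tested.

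The other groups showed the same spread among their libraries. WT library 3 was the lowest of its group in 46 of 81 members (31.1% of all loci) and in 22 of the 26 early genes. Library 2 labelled Aomdv1 was the lowest in 47 members (34.2% of all loci) and 21 early genes, and library 1 labelled Aovps1 in 49 (28.0%) and 24. WT library 1 was the highest in 49 (31.5%). Taken as the median deviation from each gene's mean, less that of all loci, the early genes stood at 0.63, 0.59 and -0.39 in WT, at 0.12, -0.27 and 0.67 in the Aomdv1-labelled libraries, and at -0.90, 0.14 and -0.77 in those labelled Aovps1 (log2). Library 2 labelled Aovps1 thus lay within the range of WT and its partners below it. With 3 libraries a group the exact permutation test could give no p-value under 0.1.

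**Figure D4:**
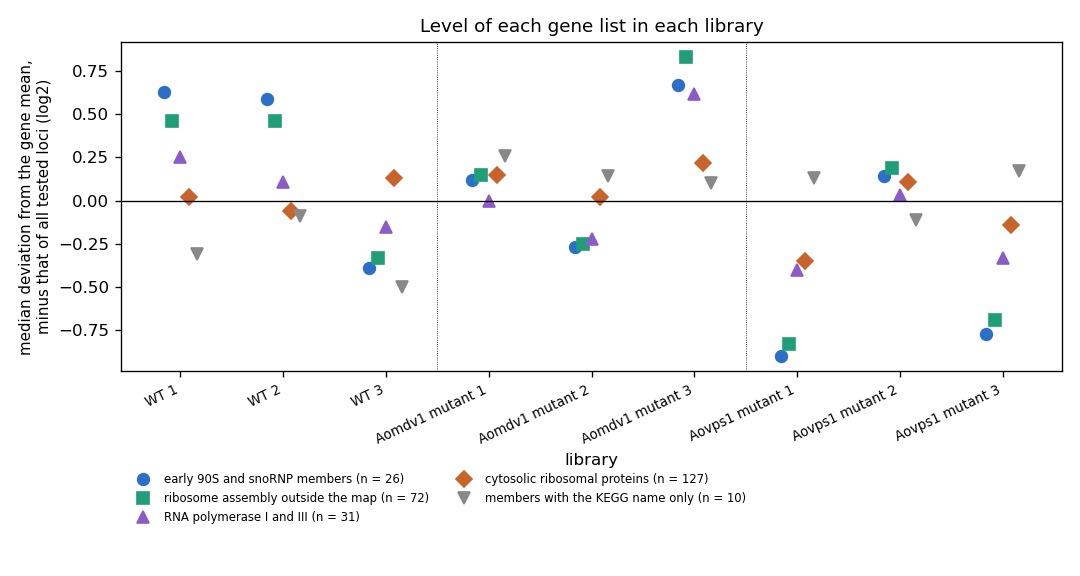
Median deviation of each gene list from its genes' means, minus that of all tested loci (log2), in each of the 9 libraries; symbols mark the lists and 0 is the level of all loci. The early genes and the assembly genes outside the map run from -0.90 and -0.83 in library 1 labelled Aovps1 to 0.67 and 0.83 in library 3 labelled Aomdv1, and the 10 genes backed only by their KEGG name do not follow them.

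In late 40S maturation, RIO1, a kinase that releases factors from the 40S precursor, was higher under both mutant labels, at FPKM 2.68, 1.6 and 2.53 in WT, 5.97, 3.75 and 7.24 in the Aomdv1-labelled libraries, and 4.06, 8.66 and 5.06 in those labelled Aovps1. The mutant libraries lay above WT, but neither comparison passed (log2 fold changes 1.00 and 1.04; limma adjusted p = 0.116 and 0.0808). HRR25 (AOL_s00079g254), the casein kinase 1 that phosphorylates 40S assembly factors, lay below WT under both labels, at 19.1, 14.3 and 14.7 in WT, 12.9, 9.11 and 6.65 in the Aomdv1-labelled libraries, and 8.67, 9.73 and 8.24 in those labelled Aovps1. Its log2 fold changes were -0.72 and -0.78 (limma adjusted p = 0.209 and 0.131). RIO2 (AOL_s00006g323), the most abundant of the 5 in WT, had 33.4, 28.6 and 39.1 in WT, 36.7, 19.5 and 31.2 in the Aomdv1-labelled libraries, and 29.9, 41.0 and 30.1 in those labelled Aovps1, with overlap. NOB1, the nuclease that makes the end of 18S rRNA, and the ATPase FAP7 overlapped too.

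RNase MRP cuts the precursor between the small and large subunit parts, and shares most subunits with RNase P, which trims tRNA. Of its 9 genes, 8 had log2 fold changes above 0 in each comparison, where 5670 and 6772 of all 10318 loci did. The medians were 0.29 for Aomdv1 and 0.32 for Aovps1, beside 0.08 and 0.30 for all loci. POP8 (AOL_s00215g685) was the most abundant in WT, at FPKM 33.3, 36.2 and 47.1, and had 76.4, 70.7 and 62.2 in the Aomdv1-labelled libraries and 74.5, 60.8 and 60.1 in those labelled Aovps1. All 6 mutant libraries lay above WT, with log2 fold changes of 0.84 and 0.74 that did not pass (limma adjusted p = 0.0783 and 0.0903). Without WT library 3 it passed for both, and without library 3 labelled Aomdv1 for Aomdv1. The lowest was RPP40, at FPKM 2.05 to 4.00 in WT.

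Among the nucleases, REXO3-like b (AOL_s00078g580, scaffold NW_011645635.1, bases 1990422 to 1991824, minus strand), related to fungal RNA exonuclease 3, fell for Aomdv1. It had FPKM 7.92, 12.1 and 17.8 in WT, 3.67, 3.05 and 4.31 in the Aomdv1-labelled libraries, and 5.22, 5.08 and 5.21 in those labelled Aovps1. All 6 mutant libraries lay below WT. The log2 fold change was -1.49 ± 0.335 for Aomdv1 (SE, limma adjusted p = 0.0189). That call was lost without WT library 2 or library 1 or 2 labelled Aomdv1 (0.052 to 0.0657) and in the fit of 2 groups (0.107). For Aovps1 the log2 fold change was -1.08 (limma adjusted p = 0.0591), and it passed in 6 of 15 alternatives, with adjusted p-values of 0.0152 to 0.18 over the 15. Both scalings and the span correction were among the 6.

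XRN2 (AOL_s00117g10), the nuclear 5' exonuclease known as Rat1 in yeast, had FPKM 49.96, 39.1 and 21.3 in WT, 28.9, 36.9 and 9.16 in the Aomdv1-labelled libraries, and 30.4, 36.4 and 29.4 in those labelled Aovps1. XRN1 (AOL_s00007g507), its cytoplasmic relative of mRNA decay, had 22.8, 21.0 and 4.51 in WT, 23.0, 29.7 and 0.34 in the Aomdv1-labelled libraries, and 32.2, 34.2 and 31.1 in those labelled Aovps1. Both long genes, of 4103 and 4513 bp, were lowest in WT library 3 and in library 3 labelled Aomdv1, the libraries in which level was lower in long genes. The libraries labelled Aovps1 lay above the other 6 for XRN1, and the fold between the mutant labels was 1.75 with all libraries (95% interval -0.57 to 4.06) and 0.30 without library 3 labelled Aomdv1. PAC1 (AOL_s00007g524), the RNase III that cuts the 3' spacer in yeast, had 30.4, 22.4 and 9.84 in WT, 21.8, 14.8 and 11.03 in the Aomdv1-labelled libraries, and 32.98, 34.8 and 33.5 in those labelled Aovps1, again highest in the last and not called.

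Among the 5 genes of nuclear transport, NTF2 (AOL_s00210g21, scaffold NW_011645767.1, bases 80968 to 81754, plus strand) rose under both labels. KEGG calls it an NTF2-related mRNA export protein, while its Swiss-Prot hit is nuclear transport factor 2, which returns Ran to the nucleus. FPKM was 407, 442 and 628 in WT, 1274, 1037 and 999 in the Aomdv1-labelled libraries, and 1187, 984 and 1342 in those labelled Aovps1. All 6 mutant libraries lay above WT, and the 2 mutant labels overlapped. The log2 fold change was 1.18 ± 0.266 (SE; limma adjusted p = 0.0188) and 1.26 ± 0.266 (limma adjusted p = 0.0119). The call for Aomdv1 was lost without WT library 1 or 2 or library 1 labelled Aomdv1 (0.0654 to 0.0764) and in the fit of 2 groups (0.094), and that for Aovps1 without WT library 2 or library 1 or 3 labelled Aovps1 (0.0527 to 0.0739).

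RAN (AOL_s00193g75), the GTPase that NTF2 carries and the most abundant member in WT, had FPKM 1129.9, 969.6 and 931 in WT, 945, 733 and 1938 in the Aomdv1-labelled libraries, and 991, 1094 and 988 in those labelled Aovps1. The groups overlapped, and the log2 fold changes were 0.13 and 0.02. CRM1 (AOL_s00188g46), the exportin of both subunits, had 50.1, 40.2 and 43.9 in WT, 62.4, 47.1 and 33.5 in the Aomdv1-labelled libraries, and 69.1, 72.9 and 74.7 in those labelled Aovps1. The last lay above the other 6, at a log2 fold change of 0.68 against WT (limma adjusted p = 0.141). MEX67, an mRNA and 60S export receptor, and NXT, a gene of the same KEGG ortholog as NTF2, overlapped between the groups.

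The annotation check left 10 genes that carry a member's KEGG name while their Swiss-Prot or Pfam hits name another protein or are missing. NTF2 and RIX7-like b, whose best Swiss-Prot hits do not carry the KEGG name either, were counted as backed and are not among the 10. These 10 contributed 3 of the 8 genes called in any comparison, and NTF2 is another of the 8. For Aovps1 all 10 had log2 fold changes above 0, with a median of 0.78, though 4 of the 10 were below 0 under either scaling, and library 2 labelled Aovps1 was the highest of its group in 1 of 10. The gene named casein kinase 2 beta (AOL_s00006g141), with no protein hit, had FPKM 354, 355 and 159.8 in WT, 644, 674 and 614 in the Aomdv1-labelled libraries, and 615, 539 and 583 in those labelled Aovps1. All mutant libraries lay above WT (log2 fold changes 1.24 and 1.09; limma adjusted p = 0.0375 and 0.0507). Its call for Aomdv1 was lost under both scalings and without library 1 or 2 labelled Aomdv1 (0.0807 to 0.101), and also under the span correction and in the fit of 2 groups (0.103 and 0.139). For Aovps1 it passed in 3 of 15 alternatives, which were the fit of 2 groups (0.0458), that without WT library 3 (0.0476) and that without both libraries 3 (0.0115).

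The gene named BMS1 with a phosphate-binding-protein type domain (AOL_s00080g360) had FPKM 17.4, 26.2 and 14.5 in WT, 49.8, 51.3 and 40.1 in the Aomdv1-labelled libraries, and 35.0, 27.6 and 38.4 in those labelled Aovps1. WT lay below all others, and it rose for Aomdv1 (1.27; limma adjusted p = 0.0269), a call lost under both scalings and without WT library 1 or library 1 or 2 labelled Aomdv1 (0.0575 to 0.0851), and also under the span correction (0.087) and in the fit of 2 groups (0.122). The gene named NOG1 with an acetyltransferase domain (AOL_s00076g47) had 41.7, 32.0 and 41.8 in WT, 76.7, 59.6 and 57.7 in the Aomdv1-labelled libraries, and 70.5, 87.6 and 69.3 in those labelled Aovps1. WT again lay below all others, and it rose for Aovps1 (0.96; limma adjusted p = 0.0402), a call lost under both scalings and without WT library 1 or 2 or any library labelled Aovps1 (0.0741 to 0.158), and also under the span correction (0.104). The gene named NUG1 with a HIT-type hit (AOL_s00083g492), the most abundant of the 10 in WT, had 243, 263 and 542 in WT, 722, 386 and 921 in the Aomdv1-labelled libraries, and 907, 539 and 742 in those labelled Aovps1. It overlapped with WT through WT library 3 and did not pass (limma adjusted p = 0.199 and 0.0984). Without the 10, 2 members rose and 1 fell for Aomdv1, and 3 rose and 1 fell for Aovps1, with NTF2 among the risers of both.

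Counted by separation alone, 9 members lay wholly above and 2 wholly below WT in the Aomdv1-labelled libraries, where 13.5% and 8.56% of all loci did. For Aovps1 the counts were 13 and 4, beside 33.0% and 13.0% of all loci. The count above WT was near the table's share for Aomdv1 and below it for Aovps1. The 33.0% was counted on FPKM as deposited, where the median log2 fold change of all loci for Aovps1 was 0.30.

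Between the mutant labels, 0 of the 81 genes passed in either direction, and 0.0% of all loci did (limma). At an unadjusted p below 0.05 there were 5 members, SDO1, LSG1, PAC1, NOP58 and NMD3, beside 9.48% of all loci. PAC1 was higher in the libraries labelled Aovps1 and the other 4 lower. Without WT library 3 and library 3 labelled Aomdv1, SDO1 alone passed (-1.46; limma adjusted p = 0.0496), beside 0.0969% of all loci that rose and 0.436% that fell. The libraries labelled Aovps1 lay wholly above those labelled Aomdv1 in 8 members (17.4% of all loci) and wholly below in 3 (6.1%), which were SDO1, LSG1 and the BMS1-named gene with the phosphate-binding-protein type domain.

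Other genes of the pathway came from lists drawn by annotation words and KEGG maps. Of all loci, 5.62% rose and 4.22% fell for Aomdv1, and 8.61% rose and 5.21% fell for Aovps1. Of 72 assembly genes outside the map, 1 rose in each comparison against WT and 0 fell (limma), with medians of 0.13 for Aomdv1 and -0.31 for Aovps1. With 1 library left out, the median for Aovps1 ran from -0.69, without library 2 of that label, to -0.12, without WT library 1, and it was -0.64 and -0.60 under the scalings. For Aomdv1 it ran from -0.04, without library 3 of that label, to 0.41, without library 2, and was -0.02 and -0.01 under the scalings. The riser was TSR3 (AOL_s00054g584), which adds an aminocarboxypropyl group to 18S rRNA, at FPKM 10.6, 3.76 and 8.37 in WT, 24.0, 25.3 and 21.6 in the Aomdv1-labelled libraries, and 19.9, 17.7 and 21.9 in those labelled Aovps1. Its mutant libraries all lay above WT (log2 fold changes 1.62 and 1.37; limma adjusted p = 0.0185 and 0.0328). Library 2 labelled Aovps1 was the highest of its group in 71 of these 72 genes, with a median ratio of 1.92 to its partners, in 12 of 12 exosome genes, in 25 of 31 genes of RNA polymerases I and III, in 117 of 127 genes on the map of the ribosome and in 27 of 32 initiation factors. The count was 36 of 60 on the map of RNA degradation and 3 of 9 among growth regulators. The exosome shares 9 genes with the assembly list. SNU13, the map gene left out by the rule, had FPKM 638, 554 and 391 in WT, 691, 569 and 1162 in the Aomdv1-labelled libraries, and 419.7, 719 and 422 in those labelled Aovps1.

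Outside assembly, the counts of rises and falls for Aomdv1 were 0 and 0 among polymerase I and III genes, exosome genes, ribosome map genes, initiation factors and growth regulators, and 1 and 0 on the map of RNA degradation. For Aovps1 they were 1 and 0 among polymerase genes, 0 and 0 in the exosome, 1 and 0 in RNA degradation, 2 and 0 on the ribosome map, 1 and 0 among initiation factors and 0 and 0 among growth regulators. The lists held 31 polymerase, 12 exosome, 60 RNA degradation, 127 ribosome map, 32 initiation factor and 9 regulator genes that were tested. Over all loci, 5.62% rose and 4.22% fell for Aomdv1, and 8.61% and 5.21% for Aovps1. The polymerase riser (AOL_s00188g43) carries a domain of a polymerase I initiation factor and had FPKM 8.73, 6.2 and 14.9 in WT, 19.7, 20.7 and 17.9 in the Aomdv1-labelled libraries, and 25.9, 24.8 and 24.1 in those labelled Aovps1, with all mutant libraries above WT (1.32 for Aovps1; limma adjusted p = 0.0273). The initiation factor list's riser (AOL_s00006g82) is a kinase of eIF2 alpha, an inhibitor of initiation, at 2.41, 1.85 and 2.05 in WT, 5.24, 4.14 and 1.06 in the Aomdv1-labelled libraries, and 6.56, 8.22 and 7.11 in those labelled Aovps1. The last lay above the other 6 (1.42; limma adjusted p = 0.044). The risers on the ribosome map were a gene named L36e with no protein hit (AOL_s00173g258; 2.17, limma adjusted p = 0.0117) and AOL_s00006g166, whose hit is the mitochondrial RML2 (0.88, limma adjusted p = 0.045).

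The growth regulators included SFP1-like AOL_s00004g580, a zinc finger protein that drives ribosome genes in yeast. It had FPKM 36.1, 43.6 and 17.9 in WT, 40.7, 58.2 and 1.04 in the Aomdv1-labelled libraries, and 42.6, 38.4 and 39.8 in those labelled Aovps1. The groups overlapped, and library 3 labelled Aomdv1 was the lowest of its group in 8 of the 9 regulators.

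On the scaffolds, 5 of the 83 genes (6.02%) sat next to another biogenesis gene, against 2.71% of the 11144 loci with a tag. NMD3 lies between NOP53, divergent at 392 bp, and ESF2, convergent at 309 bp. NOB1 and NOP10, both members, converge with 488 bp between them, and RPP1 of RNase MRP diverges from NOP14, a 90S factor, across 230 bp. HRR25 and the exosome gene RRP40 converge at 2761 bp. Across the 230 bp, RPP1 had FPKM 42.6, 26.3 and 25.1 in WT and NOP14 26.8, 23.3 and 7.99. In the Aomdv1-labelled libraries they had 36.6, 21.4 and 54.5, and 21.0, 13.1 and 12.3, so library 3 was the highest for RPP1 and the lowest for NOP14. In those labelled Aovps1 they had 32.8, 50.8 and 34.0, and 8.03, 20.5 and 8.78, both highest in library 2. That library was also the highest of its group in 71 of the 72 assembly genes outside the map, a count that was not split by position. The part of position was not tested.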

How the data were processed

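Expression was measured by RNA-seq in 9 libraries, 3 per group. The authors deposited 1 table of FPKM values, and the aligner and counter behind it are not given in the sources used. Coordinates and annotation are those of the table, and the 11144 loci with a tag have the coordinates of the RefSeq assembly. The table holds 0 columns of other samples and 0 identical library pairs. Genes were given roles by KEGG ortholog and Swiss-Prot names, and RIX7-like, REXO3-like and KEGG-named genes take their names from these hits. Depth was estimated from the step of the values of loci under 700 bp, with gene spans as lengths, so it is approximate. It gave 15850000 to 19400000 fragments, and 68.1 to 74.8% of those values lay within 0.1 of a whole fragment.

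Log2(FPKM + 1) of loci that reached FPKM 1 in 3 or more libraries was fitted in 1 model of 3 groups with limma 3.58.1 (trend on mean level, two-sided tests, run under R 4.3.3), with Benjamini-Hochberg adjustment over 10318 loci and a threshold of 0.05. Fold changes are on the log2(FPKM + 1) scale, which understates changes of low genes. On simulated data with 100 genes changed per size, 1 to 4% of log2 changes of 1 and 34 to 49% of changes of 2 were recovered, with 1 to 2 false calls. Fewer loci were changed there than were called against WT in these data, and noise was drawn for each gene on its own. These rates therefore need not hold for these libraries, whose deviations are shared between genes. Summaries used Python 3.11.15.

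Genes were named by a rule: every called member, the most abundant member of each role in WT, the extremes of each comparison, the targeted genes, and up to 2 risen and 2 fallen genes of each other list. IMP4, NOP58, NMD3, NOP4, LSG1, AFG2, MDN1, RIX7-like b, NAT10, UTP10, CKB-1, RIO1, HRR25, NOB1, FAP7, RPP40, PAC1, CRM1, MEX67, NXT, SNU13, SFP1-like and the neighbour genes were named after their values were seen. The members and lists were chosen with earlier results of these data known, the union of early genes was formed after its values were seen, and 4 genes found by the word CRF1 were removed from the growth regulators as other proteins. Alternatives were another pseudocount (0.1), other filters, 2 scalings, a replicate block, fits of 2 groups, leaving out libraries, a correction for gene span, and leaving out members with general roles or a KEGG name only. A search of promoters for motifs was not run.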

Additional observations from a re-analysis of the deposited data

How the results depend on the processing

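A pseudocount of 0.1, no filter and a filter at a mean FPKM of 5 gave the same counts of members called. Members that rose for Aomdv1 numbered 4 as reported, 2 with median-ratio scaling, 2 with quantile scaling, 1 with a fit of only the 2 groups, 10 without WT library 3 and library 3 labelled Aomdv1, 2 with the gene span correction, 2 without general roles and 2 without KEGG-only names. With 1 library left out they numbered 1 to 5. Those that fell numbered 1, and 0 with only the 2 groups (0 to 1 with 1 library left out). Members that rose for Aovps1 numbered 4, with 2 under median ratios, quantiles and the span correction, 7 with only the 2 groups and 14 without the 2 libraries (1 to 7 with 1 left out). Those that fell numbered 1, with 3 under both scalings and the span correction, 2 with only the 2 groups and 8 without the 2 libraries (1 to 2). Between the mutant labels 1 fell without the 2 libraries and 0 otherwise.

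The members' median for Aomdv1 went from 0.13 to -0.18, and its difference from all loci from 0.05 to -0.42, without the 2 libraries (-0.04 to 0.33 and -0.21 to 0.25 with 1 left out). The median for Aovps1 went from -0.03 to -0.37 with median ratios, -0.33 with quantiles and -0.33 with the span correction (-0.29 to 0.09 with 1 left out), while its difference from all loci was -0.65 to -0.24 with 1 left out. Between the mutant labels these were -0.25 to -0.04 and -0.40 to -0.20. The fold of MDV1 turned from -0.17 to 0.02 without library 3 labelled Aomdv1. The causes were not tested, apart from the fewer samples or genes that some alternatives use.

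Library numbers are shared between groups. Deviations from the group means correlated at -0.283 to 0.387 for same-numbered libraries and at -0.275 to 0.278 for libraries of different number. Deviations from a mean of 3 libraries are tied to each other, so these values cannot decide whether the numbers pair the libraries. With the replicate block, 3 members rose and 1 fell for Aomdv1, and 2 rose and 1 fell for Aovps1. With the block, the limma adjusted p of the BMS1-named gene for Aomdv1 was 0.0551, and for Aovps1 those of RIA1, the NOG1-named gene and VPS1 were 0.0591, 0.0752 and 0.0653, so these calls were lost.

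With 3 libraries a group and no fragment counts, a member that did not pass is not shown to be unchanged. In the simulated data, changes of 1 on the log2 scale were mostly not recovered, a rate that need not hold for these libraries.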
